A study of Mus musculus with 4 samples.

Results

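The Folr2 Cbr2 positive macrophages of the mouse peritoneal cavity were 309 of the 19753 cell barcodes that passed a filter of 300 or more detected genes and at most 10% mitochondrial unique molecular identifiers (UMIs). They came from high-fat diet (HFD) mice in 170 cases and from chow diet (CD) mice in 139. A barcode was a member when Folr2 and Cbr2 together had 3 or more UMIs, Csf1r and Adgre1 together had 1 or more, Cd79a and Ms4a1 together had 2 or fewer, Cd3e and Cd3d had none, and no B-cell receptor contig was attached to it. Large peritoneal macrophages, the class they were set against, had 5 or more UMIs of Adgre1, Prg4 and Alox15 together, 2 or fewer of Folr2 and Cbr2, and the same exclusions. There were 1075 of these in HFD and 1359 in CD mice. The cells were CD45+ cells sorted from peritoneal lavage of WT mice that had been given their diet from 4 weeks of age for 3 months, and each diet had 1 droplet expression library and 1 receptor library. A treatment note in the labels puts both groups on the high-fat diet, and the groups here follow the sample titles and the series design, which name chow for CD. Neither strain, sex, number of mice nor pooling is stated in the labels. With 1 library per diet there was no replicate check, no p-value was computed, and every interval below is a 95% interval of counting error alone.

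Macrophages that carry folate receptor beta (Folr2) are known from connective tissue, serous membranes and vessel walls, where many also carry the hyaluronan receptor Lyve1, the mannose receptor Mrc1 and the haemoglobin scavenger receptor Cd163. The free fluid of the mouse peritoneum is dominated by large resident macrophages that depend on the transcription factor Gata6, beside fewer small macrophages that derive from Ccr2-positive monocytes and carry MHC class II. Cbr2 encodes a carbonyl reductase. Retnla encodes the secreted protein RELM-alpha, a product of macrophages under interleukin-4 and interleukin-13, and Fcna encodes ficolin A, a soluble lectin of the lectin route of complement.

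The promoters of these 4 genes are shown because the genes are the markers named for this group. Each line gives the 250 bases before a start site in RefSeq (GRCm38.p6), read 5′ to 3′ on the gene's own strand, and capitals mark matches to the motifs named after the sequences. The windows are chr7:101857191-101857440 (minus strand) and chr7:101845332-101845581 (minus) for the annotated starts of Folr2, chr11:120732022-120732271 (minus) for Cbr2, chr16:48842359-48842608 (plus) for Retnla and chr2:25627975-25628224 (minus) for Fcna.
Folr2 first start: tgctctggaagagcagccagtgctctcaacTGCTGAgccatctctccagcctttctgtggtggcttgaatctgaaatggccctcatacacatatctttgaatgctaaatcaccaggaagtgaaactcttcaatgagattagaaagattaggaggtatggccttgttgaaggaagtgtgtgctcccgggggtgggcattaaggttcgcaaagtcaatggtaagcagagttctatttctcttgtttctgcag
Folr2 second start: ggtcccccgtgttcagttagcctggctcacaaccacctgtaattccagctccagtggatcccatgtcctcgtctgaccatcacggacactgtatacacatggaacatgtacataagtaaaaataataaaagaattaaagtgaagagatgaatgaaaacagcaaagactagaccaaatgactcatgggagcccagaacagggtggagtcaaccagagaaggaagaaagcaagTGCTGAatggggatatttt
Cbr2: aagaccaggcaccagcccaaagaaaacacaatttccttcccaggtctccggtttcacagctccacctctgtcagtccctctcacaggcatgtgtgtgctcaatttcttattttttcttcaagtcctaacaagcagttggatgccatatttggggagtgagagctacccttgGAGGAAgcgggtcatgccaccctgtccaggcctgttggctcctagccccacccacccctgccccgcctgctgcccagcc
Retnla: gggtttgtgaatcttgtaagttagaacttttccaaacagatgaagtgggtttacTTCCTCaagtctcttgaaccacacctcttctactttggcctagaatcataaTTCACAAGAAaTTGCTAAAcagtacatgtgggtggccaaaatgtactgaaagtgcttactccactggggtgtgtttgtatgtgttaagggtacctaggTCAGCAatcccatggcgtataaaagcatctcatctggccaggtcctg
Fcna: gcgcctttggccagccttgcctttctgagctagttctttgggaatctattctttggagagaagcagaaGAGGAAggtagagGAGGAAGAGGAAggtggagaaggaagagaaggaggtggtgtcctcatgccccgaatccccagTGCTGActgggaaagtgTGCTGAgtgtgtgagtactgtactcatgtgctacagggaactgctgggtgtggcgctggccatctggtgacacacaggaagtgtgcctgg
Searched on both strands were the core of the PU.1 site (GAGGAA, in 23.3% of 32851 RefSeq promoter windows of this length), the MAF half-site (TGCTGA, in 16.1%), the STAT6 site (TTCNNNNGAA, in 5.85%) and a C/EBP site (TTGCNNAA, in 9.56%). The Retnla window held 1 match to each. Its STAT6 match, TTCACAAGAA, lay 145 to 136 bases before the start, and its C/EBP match, TTGCTAAA, lay 134 to 127 bases before the start. The Fcna window held 3 PU.1 and 2 MAF matches, the Cbr2 window 1 PU.1 match, and each Folr2 window 1 MAF match. No match shared a base with another. A match describes the letters and not the binding of a factor.

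The rule drew on sparse counts. In HFD mice 202 filtered barcodes had 3 or more Folr2 and Cbr2 UMIs, 192 of them carried no contig, 191 of these had Csf1r or Adgre1, 181 had 2 or fewer B-cell UMIs and 170 had no Cd3e or Cd3d. In CD mice the same steps left 226, 194, 191, 150 and 139 barcodes. Contig-carrying barcodes are B cells and show what free RNA and mixed droplets contribute, and 10 of 3677 in HFD and 32 of 7112 in CD reached 3 Folr2 and Cbr2 UMIs. No doublet caller was run, so barcodes holding several macrophages can remain among the members. The libraries had 30 barcode sequences in common, of which 1 was an HFD member and 0 were CD members.

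Members were deeper than the other barcodes. Their median was 18591 UMIs in HFD and 8362 in CD, against 13029 and 4721 in large macrophages of the same diets and 5983 and 4628 in contig-carrying barcodes. Both genes were found in 107 of 170 HFD members and 85 of 139 CD members. Folr2 alone was found in 27 HFD and 22 CD members, and Cbr2 alone in 36 HFD and 32 CD members. The median Folr2 and Cbr2 total was 5 UMIs in either diet, and the highest was 84 in HFD and 65 in CD. The highest Folr2 count was 20 UMIs in HFD and 23 in CD, and Cbr2 reached 73 in HFD and 58 in CD, so a few cells lay far above a mass of cells near the threshold. The summed level of Folr2 was 224 UMIs per 1000000 UMIs (CPM) in HFD members and 349 CPM in CD members, against 7.17 and 13.02 CPM in large macrophages. That of Cbr2 was 248 and 496 CPM in HFD and CD members, against 10.6 and 23.5 CPM in large macrophages. These gaps follow from the rule.

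**Figure D1:**
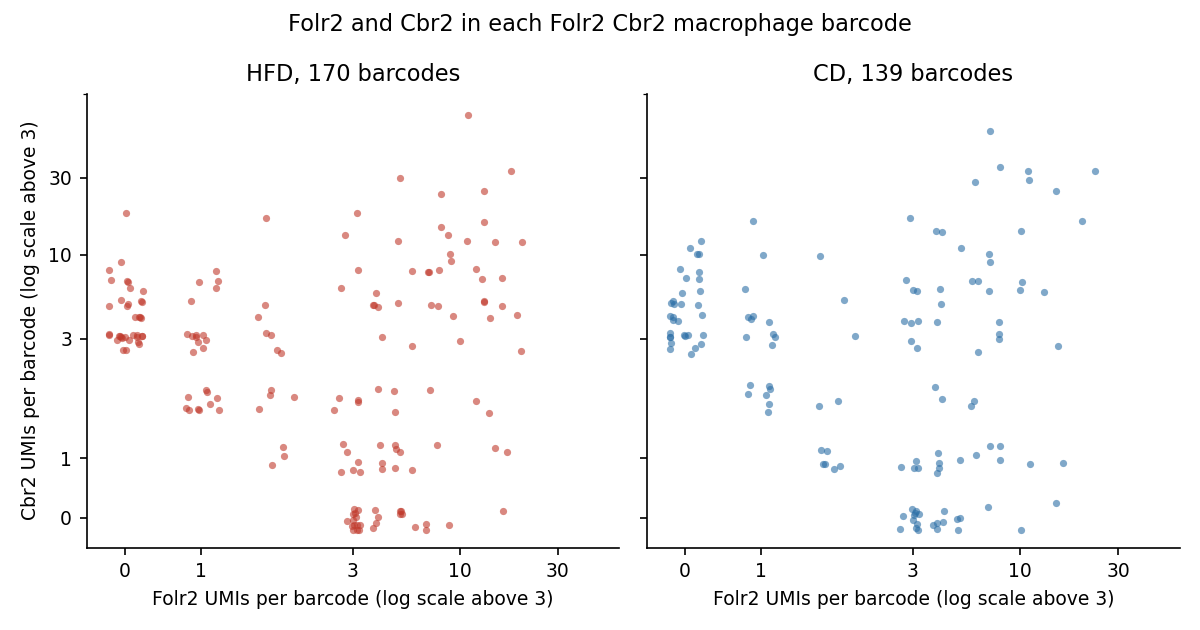
Folr2 and Cbr2 UMIs of each member, with HFD on the left and CD on the right; each point is 1 barcode, moved slightly so that equal counts can be seen, and both axes are linear to 3 UMIs and logarithmic above. Many points lie close to an axis or to the threshold of 3 UMIs, and 107 of 170 HFD and 85 of 139 CD members have both genes.

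Retnla and Fcna were not in the rule, but they were markers named for this group from these same data. Their presence in most members of both libraries is therefore a description and no independent support. Fcna was found in 166 of 170 HFD members and 137 of 139 CD members, with medians of 13.5 and 21 UMIs per cell. Retnla was found in 122 of 170 HFD and 119 of 139 CD members. It was far less even than Fcna, with a median of 4 UMIs and a highest value of 628 in HFD and a median of 17 and a highest value of 461 in CD. The 10 highest members held 50.5% of all Retnla UMIs of HFD members and 38.4% of those of CD members. Both genes together were found in 121 HFD and 118 CD members.

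Detection depends on depth, so members and comparison cells with at least 4000 UMIs were also thinned to that number, which kept 168 HFD and 124 CD members. Retnla was then found in 54.2% of HFD and 79.0% of CD members, in 20.9% and 36.2% of large macrophages, and in 6.3% and 10.8% of contig-carrying barcodes of HFD and CD. Unthinned, these shares were 71.8% and 85.6%, 32.4% and 40.3%, and 10.3% and 14.5%. Fcna was found after thinning in 84.5% and 98.4% of HFD and CD members, 70.4% and 89.9% of large macrophages and 4.5% and 10.2% of contig-carrying barcodes. Retnla thus separated the members from large macrophages by how many cells carried it, whereas Fcna was present in most cells of either class and separated them by amount.

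The label of the cells was set against their other markers. Nearly every member also met the large-macrophage threshold for the sum of Adgre1, Prg4 and Alox15. The sum was 5 or more UMIs in 164 of 170 HFD members and 129 of 139 CD members. The median of that sum was 99.5 UMIs in HFD members and 56 in CD members, against 101 and 42 in large macrophages of the same diets. Gata6 was found in 120 HFD and 50 CD members. Timd4, a phosphatidylserine receptor of long-lived resident macrophages, was found in 52 HFD and 42 CD members. These counts were taken at unequal depth. Among cells thinned to equal depth as above, Gata6 was found in 29.8% of HFD and 15.3% of CD members, against 38.8% and 35.1% of large macrophages. Timd4 was then found in 23.8% of HFD and 20.2% of CD members, against 24.6% and 44.1% of large macrophages. Lyve1 was found in 34 HFD and 33 CD members. The members were thus mostly macrophages that met the large-macrophage threshold for Adgre1, Prg4 and Alox15 and also carried Folr2 or Cbr2. Most lacked a Lyve1 UMI. Of dendritic-cell genes, Cd209a was found in 2 HFD and 3 CD members and Flt3 in 2 HFD and 0 CD members.

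Genes of other cell types were low. For B and T cells this follows in part from the rule. It capped Cd79a and Ms4a1, allowed no Cd3e or Cd3d and left out contig-carrying barcodes, in both macrophage classes. The 14 B-cell genes summed to 577 CPM in HFD and 715 CPM in CD members, against 671 and 857 CPM in large macrophages, and Cd37, which macrophages also express, held most of that sum. Immunoglobulin and B-cell receptor genes put the part of member UMIs that a B-cell profile would give at 0.832% in HFD and 1.55% in CD, against 1.03% and 2.75% in large macrophages. The 15 T and NK cell genes summed to 15.4 CPM in HFD and 28.7 CPM in CD members. The 14 mast cell and granulocyte genes summed to 84.6 and 109 CPM in HFD and CD members, nearly all of it Csf3r and S100a8, while Cpa3, Cma1, Fcer1a, Siglecf, Epx and Prg2 were at 0. The 14 genes of mesothelium, fibroblasts and endothelium summed to 3.09 and 2.67 CPM in HFD and CD members, with Msln, Upk3b and Col1a1 at 0. The 10 dendritic-cell genes summed to 20.7 CPM in HFD and 37.4 CPM in CD members, with Xcr1 and Clec9a at 0.

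The markers were set out along the Folr2 and Cbr2 count. All macrophages of either class were put in bands by that count, which gives the values just inside and just outside the rule as a description. In HFD mice Retnla stood at 1272 CPM in the 52 cells with 2 UMIs and at 1763 CPM in the 45 cells with 3, and in CD mice at 2177 CPM in 74 cells and 4561 CPM in 36 cells. Fcna stood at 607 CPM with 2 UMIs and 512 CPM with 3 in HFD mice, and at 1439 and 2020.5 CPM in CD mice. F13a1, the catalytic subunit of coagulation factor XIII, stood at 88.7 CPM with 2 UMIs and 147 CPM with 3 in HFD mice, and at 447 and 664 CPM in CD mice. For Retnla and F13a1, cells with 2 UMIs had levels between those of cells with none and cells with 3 in both diets. The steps were not even. The 177 cells with 1 UMI in CD mice had 3244 CPM of Retnla, above those with 2, and HFD Fcna was lower with 3 UMIs than with 2.

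The ends of the scale were far apart. In HFD mice the 41 cells with 11 or more UMIs had 4591 CPM of Retnla, against 430.2 CPM in the 857 cells with none, and in CD mice the 33 highest cells had 7431 CPM, against 903 CPM in 1108 cells. Fcna stood at 1518 and 396 CPM in the highest and zero bands of HFD mice, and at 3299.5 and 974 CPM in those of CD mice. Lyve1 stood at 199.8 CPM in the highest band and 0.122 CPM in the zero band of HFD mice, and at 406 and 13.1 CPM in CD mice. These 3 genes were several-fold higher in the highest band of either library. Mrc1 stood at 111 and 4.70 CPM in HFD and at 138 and 10.2 CPM in CD mice. Maf, a transcription factor of tissue macrophages, stood at 148 and 31.3 CPM in HFD and at 190.2 and 39.6 CPM in CD mice.

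Timd4 and Gata6 went the other way along the same scale. Timd4 stood at 41.1 CPM in the highest band and 103 CPM in the zero band of HFD mice, and at 27.5 and 277 CPM in CD mice. Gata6 stood at 89.0 and 145 CPM in HFD and at 32.1 and 117 CPM in CD mice. Alox15, a lipoxygenase, stood at 1461 and 3050.0 CPM in HFD and at 2773 and 4357 CPM in CD mice, but cells of the bands under 3 entered through a rule that uses Alox15, so nothing is read from it. Pf4, a chemokine also made by platelets, hardly differed, at 5254 and 5079 CPM in HFD and 3497 and 3370.2 CPM in CD mice. Median depth also differed along the bands, at 19806 UMIs in the highest and 12426 in the zero band of HFD mice and 12873 and 4531 in CD mice, so the bands were also formed after thinning to 2000 UMIs. Retnla then stood at 3962 CPM in the 13 cells with 4 to 5 UMIs and 455 CPM in the 1025 cells with none in HFD mice, and at 6316 CPM in 19 cells and 1082 CPM in 1166 cells in CD mice.

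**Figure D2:**
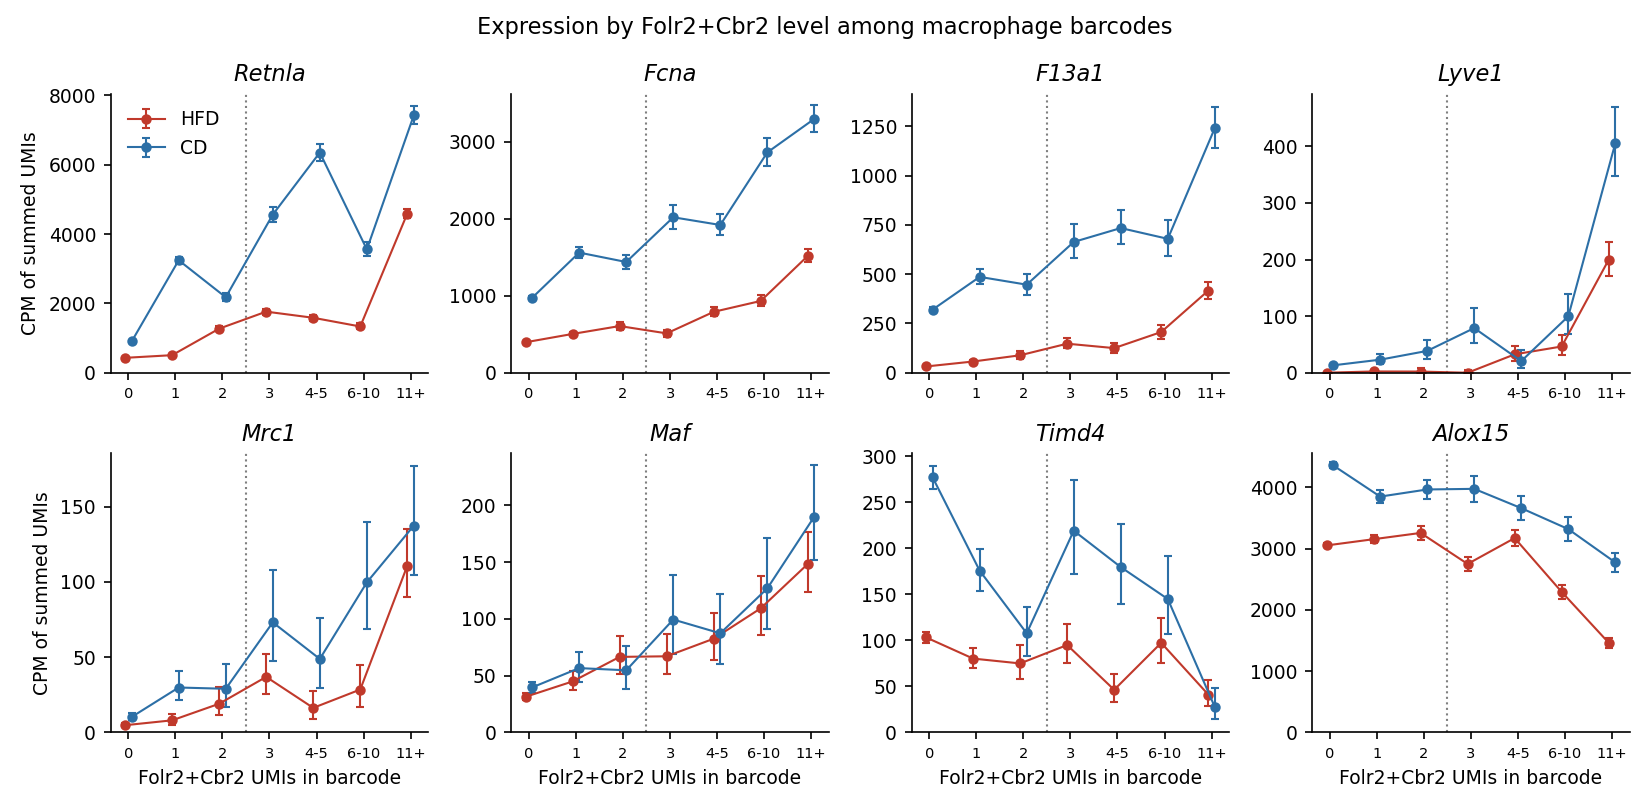
Level of 8 genes in CPM, on linear axes from 0, against the number of Folr2 and Cbr2 UMIs per macrophage, with HFD in red and CD in blue; points are sums over the cells of a band, bars are 95% Poisson intervals and the dotted line marks the rule between 2 and 3 UMIs. Retnla, Fcna, F13a1, Lyve1, Mrc1 and Maf end higher than they begin in both diets, and Timd4 ends lower; Alox15 is a gene of the rule for the bands under 3.

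The share of members among all filtered barcodes was higher in the HFD library, but the rule is a UMI threshold and the HFD library was the deeper of the pair. Members were 2.54% (95% Clopper-Pearson interval 2.18 to 2.95) of 6684 barcodes in HFD and 1.06% (0.895 to 1.25) of 13069 in CD, a difference of 1.48 percentage points (1.08 to 1.92). Of all macrophages of both classes they were 13.7% (11.8 to 15.7) in HFD and 9.28% (7.86 to 10.9) in CD, a difference of 4.38 points (1.99 to 6.81). The HFD share was thus the higher with either denominator.

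Every barcode was then thinned to 4000 UMIs before the rule was applied, which left out 1521 HFD and 5630 CD barcodes that were shallower. Members were then 1.24% of barcodes in HFD and 0.807% in CD, a difference of 0.433 points (0.08 to 0.82). Of macrophages they were 5.38% in HFD and 6.15% in CD at that depth, a difference of -0.765 points (-2.80 to 1.20). At 2000 UMIs the share of barcodes was 0.407% in HFD and 0.375% in CD, a difference of 0.03 points (-0.15 to 0.24). The share of macrophages was then 2.27% in HFD and 3.35% in CD, a difference of -1.09 points (-2.39 to 0.24). At equal depth the HFD share of macrophages was no longer the higher, and these intervals include 0.

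**Figure D3:**
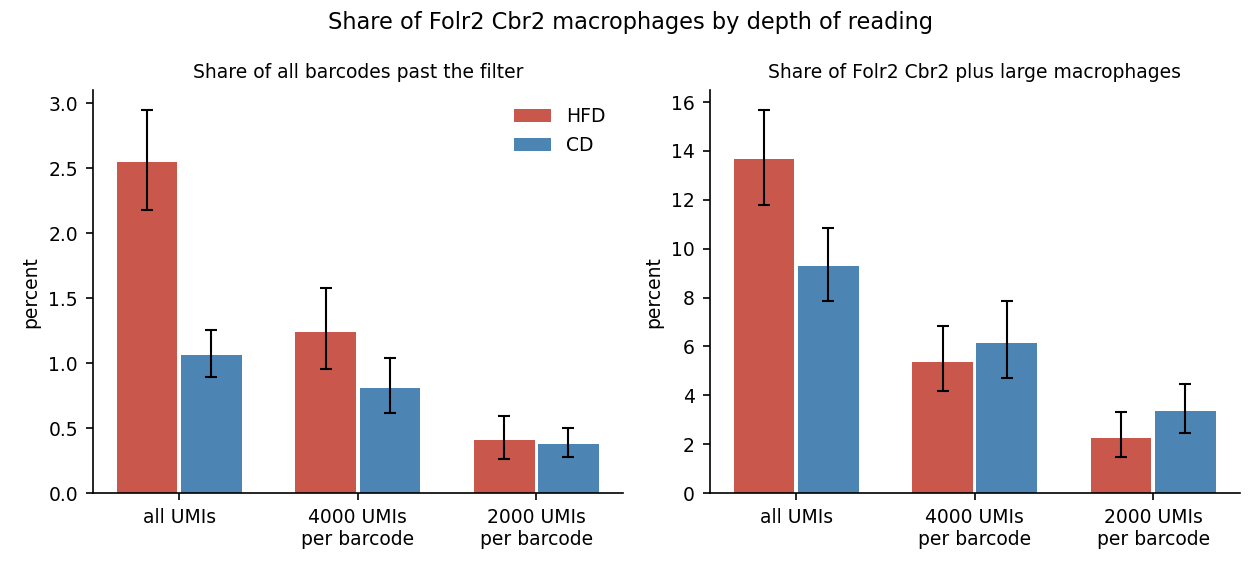
Share of members in percent, among filtered barcodes and among macrophages, with all UMIs and after thinning to 4000 and 2000 UMIs; HFD bars stand left of CD bars and lines are 95% Clopper-Pearson intervals. The HFD bar is the higher among macrophages with all UMIs, at 13.7% against 9.28%, and the lower at 2000 UMIs, at 2.27% against 3.35%.

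Set against large macrophages of the same library, the members had more RNA of tissue-macrophage genes and of the chemokines Ccl6 and Ccl9, and less of a set of large-macrophage genes. UMIs were summed per class and library, and a gene was measured with 20 or more UMIs over both sums and 20 or more CPM in the higher class. In HFD mice 38 of 5367 measured genes (0.708%) were 2-fold or more higher in members and 30 (0.559%) 2-fold or more lower, and in CD mice 64 of 5494 (1.16%) were higher and 46 (0.837%) lower. In both libraries 17 of 5069 genes (0.335%) were higher and 20 (0.395%) lower. Both classes were chosen by the expression of these cells, so these ratios describe the members and are no test, and the median log2 ratio of all measured genes was 0.11 in either diet.

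Lyve1 had the largest ratio of the 12 higher genes that the rule for named genes gave. It stood at 71.6 CPM in HFD and 163 CPM in CD members, against 0.592 and 16.4 CPM in large macrophages, log2 ratios of 6.92 (5.97 to 8.07) in HFD and 3.32 (3.02 to 3.62) in CD. After thinning, Lyve1 was found in 11.9% of HFD and 18.5% of CD members, against 0.408% and 3.797% of large macrophages and 0.105% and 0.465% of contig-carrying barcodes. Mrc1 stood at 50.02 and 91.4 CPM in HFD and CD members, against 6.18 and 14.5 CPM in large macrophages, log2 ratios of 3.02 (2.64 to 3.40) and 2.66 (2.30 to 3.02). In each library both genes were higher in the members.

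Retnla stood at 2396 and 5640.4 CPM in HFD and CD members, against 496 and 1345 CPM in large macrophages, log2 ratios of 2.27 (2.23 to 2.32) and 2.07 (2.03 to 2.11). F13a1 stood at 227 and 854 CPM in HFD and CD members, against 39.7 and 354 CPM in large macrophages, log2 ratios of 2.51 (2.36 to 2.67) and 1.27 (1.17 to 1.36). For F13a1 the large macrophages of CD mice thus exceeded the members of HFD mice. Maf stood at 102 and 129 CPM in HFD and CD members, against 35.8 and 43.2 CPM in large macrophages, log2 ratios of 1.50 and 1.57. Fcna stood at 939.9 and 2553 CPM in HFD and CD members, against 428 and 1095 CPM in large macrophages, log2 ratios of 1.13 and 1.22. Within each library the members had the higher level of all 4 genes.

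The chemokine Ccl6 was the most abundant of the higher genes. It stood at 5900.2 and 5257 CPM in HFD and CD members, against 2501 and 2006 CPM in large macrophages, log2 ratios of 1.24 and 1.39. Ccl9, another CC chemokine, stood at 603 and 512 CPM in HFD and CD members, against 309 and 238 CPM in large macrophages. The other higher genes were Igfbp4, which binds insulin-like growth factors, Anxa5, which binds phosphatidylserine, Gnpda1, an enzyme of amino sugar metabolism, and Lgals1, galectin-1. Their log2 ratios lay between 0.90 and 1.35 in the 2 libraries.

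The 12 lower genes included products that large macrophages make in quantity. Slpi, a secreted inhibitor of leukocyte proteases, stood at 18097 and 12951 CPM in HFD and CD members, against 34987 and 24482 CPM in large macrophages, log2 ratios of -0.95 and -0.92. Cd9, a tetraspanin, stood at 388 and 383 CPM in HFD and CD members, against 955 and 938 CPM in large macrophages, log2 ratios of -1.30 and -1.29. Fabp4, a fatty acid binding protein, stood at 655 and 638 CPM in HFD and CD members, against 1396 and 1819 CPM in large macrophages, log2 ratios of -1.09 and -1.51. Slpi and Cd9 had nearly the same ratio in both diets.

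Garnl3 stood at 187 and 54.0 CPM in HFD and CD members, against 390.2 and 219.9 CPM in large macrophages, log2 ratios of -1.06 and -2.03. Vmn2r26, annotated as a vomeronasal receptor, stood at 92.9 and 13.3 CPM in HFD and CD members, against 208 and 97.1 CPM in large macrophages, log2 ratios of -1.16 and -2.86. Tgfb2, a transforming growth factor, had log2 ratios of -1.07 in HFD and -1.11 in CD, and Ptgis, prostacyclin synthase, of -1.27 in HFD and -1.07 in CD. Pi16, Rgs2, Pglyrp1, Rad51b and Serpinb1a lay between -2.20 and -0.96. Thinning all barcodes before the rule keeps as members only cells with more Folr2 and Cbr2 per UMI, and it took several of these genes further down. The ratio was -3.16 for Fabp4 in HFD at 2000 UMIs and -4.70 for Garnl3 in CD at 4000 UMIs. For Pi16 in CD it was -0.57 at 2000 UMIs and -3.55 at 4000 UMIs. Thinning left 26 HFD and 46 CD members at 2000 UMIs, and 64 HFD and 60 CD members at 4000 UMIs. These thinned ratios thus rest on few UMIs of each gene, and their size is not read.

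**Figure D4:**
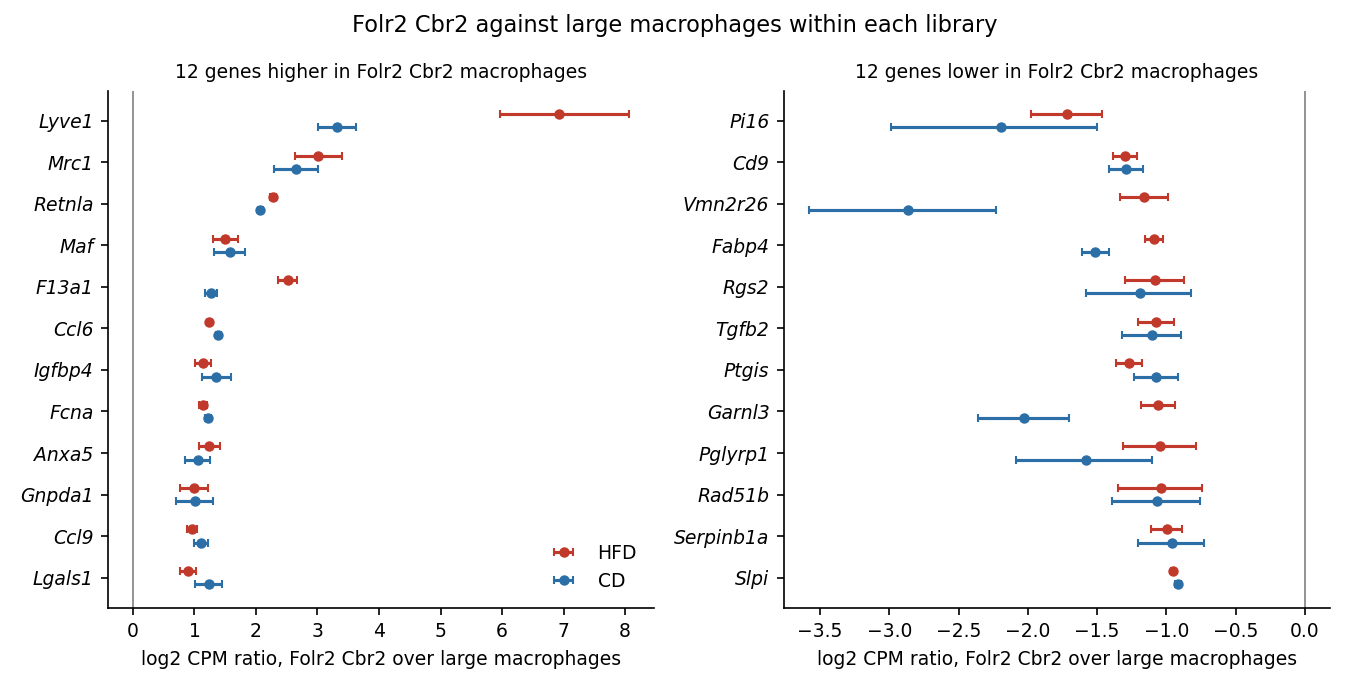
Log2 ratio of members over large macrophages within the HFD library (red) and the CD library (blue) for the 12 higher and 12 lower genes named by rule, with 95% counting intervals. Lyve1, at 6.92 in HFD and 3.32 in CD, shows the widest gap between the diets, and Cd9, at -1.30 and -1.29, almost none.

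Gene lists describe how far this extended. The classes were chosen by Folr2 and Cbr2 and by Adgre1, Prg4 and Alox15, and genes of the rule were not left out of the lists. The counts of tissue-macrophage and large-macrophage genes can thus follow in part from the rule and are no test. Of the 23 measured tissue-macrophage genes of the Folr2 Lyve1 type, 18 were higher in HFD members, 7 of them by 2-fold or more, with a median log2 ratio of 0.47, and in CD mice 21 of 24 were higher, 8 by 2-fold or more, with a median of 0.60. Stab1, a scavenger receptor, stood at 19.8 and 62.0 CPM in HFD and CD members, against 6.12 and 28.3 CPM in large macrophages. Selenop, a selenium transport protein, stood at 804 and 1661 CPM in HFD and CD members, against 519.6 and 1091 CPM in large macrophages. Of the 26 measured large-macrophage genes 24 were lower in HFD members, 5 of them by 2-fold or more, with a median of -0.47, and 25 in CD members, 8 by 2-fold or more, with a median of -0.57. Gata6 stood at 103 and 56.7 CPM in HFD and CD members, against 139 and 113 CPM in large macrophages. Timd4 stood at 68.9 and 137 CPM in HFD and CD members, against 97.5 and 250.1 CPM in large macrophages. Members thus had less of the large-macrophage genes but by less than 2-fold for most.

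Genes of small macrophages and monocytes and of MHC class II had higher summed levels in members. Of small-macrophage and monocyte genes, 13 of 15 measured in HFD and 10 of 14 in CD were higher, with medians of 0.37 and 0.49. Ccr2 stood at 38.3 and 84.1 CPM in HFD and CD members, against 16.1 and 28.2 CPM in large macrophages, log2 ratios of 1.25 and 1.58. Of the 10 MHC class II genes, 8 were higher in HFD members, with a median of 1.06, and 7 in CD members, with a median of 0.66. The alpha chain gene H2-Aa stood at 461 and 673 CPM in HFD and CD members, against 148 and 418 CPM in large macrophages. The invariant chain gene Cd74 stood at 2022 and 3740.5 CPM in HFD and CD members, against 613 and 1986 CPM in large macrophages. The class II sums were uneven across cells. Single HFD members held 264, 178, 155, 145 and 144 H2-Aa UMIs, and a CD member held 133. Among cells thinned to equal depth as above, H2-Aa was found in 38.1% of HFD and 60.5% of CD members. In large macrophages it was then found in 28.3% and 48.5%. The sums thus do not show that most members had more class II RNA. The class II excess lay largely in the members with a Ccr2 UMI, 27 in HFD and 31 in CD. In members without one, H2-Aa stood at 155 and 298 CPM in HFD and CD, against the 148 and 418 CPM of large macrophages, and Cd74 at 783 and 1897 CPM, against 613 and 1986 CPM. MHC class I genes were not higher as a group, with 6 of 15 higher in HFD and 7 of 15 in CD members and medians of -0.08 and -0.01. B cells carry class II genes too, and with a B-cell profile subtracted the list's median was 1.77 in HFD and 0.99 in CD. Folate and one-carbon genes, a list that holds Folr2, hardly separated the classes, with medians of 0.07 in HFD and -0.04 in CD. Sterol synthesis genes were higher in 16 of 19 in HFD and 15 of 19 in CD members, with medians of 0.36 and 0.18. The median of all measured genes was 0.11 in either diet, so more genes were higher than lower in members to begin with. With ratios centred on the median gene, the sterol medians were 0.25 in HFD and 0.08 in CD, so the CD value lay near that of all genes.

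The cell-cycle and interferon lists had medians of opposite sign in the diets, but the signs depended on the processing. All 26 measured cell-cycle genes were higher in HFD members than in HFD large macrophages, with a median log2 ratio of 0.62, whereas 10 were higher and 16 lower in CD members, with a median of -0.11. The HFD median was 0.29 against large macrophages drawn to the depths of the members and -0.43 with all barcodes thinned to 4000 UMIs before the rule, and the CD median was 0.51 when 2 or more Folr2 and Cbr2 UMIs sufficed. Of the interferon response genes 19 of 27 were higher in HFD members, with a median of 0.27, and 12 of 29 in CD members, with a median of -0.11. That CD median was 0.10 against large macrophages drawn to the depths of the members and 0.12 with equal weight per barcode.

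Between the diets, HFD members had more RNA of proliferation genes and of a few secreted or surface proteins, and less of Cxcl13, Apoe and several scavenger receptors. Of 5664 measured genes 112 (1.98%) were 2-fold or more higher in HFD members and 103 (1.82%) 2-fold or more lower, and the median log2 ratio of all measured genes was 0.001. In large macrophages the numbers were 62 higher (1.18%) and 69 lower (1.31%) of 5255. The comparisons within each class share no cells, but they share the pair of libraries, so a difference between the libraries as a whole would appear in both.

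Klk8, a serine protease, had the largest ratio of the 12 higher genes named by rule. It stood at 71.9 CPM in HFD members and 4.00 CPM in CD members, a log2 ratio of 4.17 (3.02 to 5.63), against 2.23 in large macrophages. Ccl2, the chemokine that draws Ccr2-positive monocytes, stood at 63.3 CPM in HFD and 6.67 CPM in CD members, a log2 ratio of 3.25 (2.34 to 4.33), against 2.27 in large macrophages. Vmn2r26 stood at 92.9 CPM in HFD and 13.3 CPM in CD members, a log2 ratio of 2.80 (2.15 to 3.53), against 1.10 in large macrophages. The diet ratio of Vmn2r26 exceeded that of large macrophages by 1.70 (1.04 to 2.37) and that of Klk8 by 1.94 (0.74 to 3.14) on the log2 scale.

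Car6, a secreted carbonic anhydrase, stood at 150.4 CPM in HFD and 41.4 CPM in CD members, a log2 ratio of 1.86 (1.48 to 2.27), and differed from the ratio of large macrophages by 0.15 (-0.27 to 0.56). Emb, the membrane glycoprotein embigin, stood at 76.0 and 18.0 CPM in HFD and CD members, a log2 ratio of 2.08 (1.50 to 2.71), and differed from large macrophages by -0.46 (-1.09 to 0.16). For both genes the interval of that difference included 0. Garnl3 stood at 187 CPM in HFD and 54.0 CPM in CD members, a log2 ratio of 1.79 (1.46 to 2.15), which exceeded that of large macrophages by 0.97 (0.62 to 1.31). The other higher genes were Cald1, caldesmon, Jam2, a junctional adhesion molecule, Ctdspl, a phosphatase, and H2ac24, a histone H2A, with ratios between 1.39 and 1.79. The ratio of H2ac24 was 0.75 when 2 or more Folr2 and Cbr2 UMIs sufficed.

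Proliferation genes were higher in HFD members as a group. All 26 measured cell-cycle genes were higher in HFD than in CD members and 22 were so by 2-fold or more, with a median log2 ratio of 1.81, against 1.001 in large macrophages, where 14 were 2-fold or more higher. The median in members was 0.91 with barcodes thinned to 4000 UMIs before the rule. Stmn1, which destabilises microtubules, stood at 91.1 CPM in HFD and 21.4 CPM in CD members, a log2 ratio of 2.09 (1.56 to 2.67). Mcm6, a subunit of the replicative helicase, stood at 55.9 and 13.3 CPM in HFD and CD members, a ratio of 2.07 (1.40 to 2.81). Mki67, which encodes the proliferation antigen Ki-67, was found in 31 of 170 HFD and 5 of 139 CD members. After thinning to 4000 UMIs it was found in 7.14% (3.75 to 12.1) of HFD and 2.42% (0.502 to 6.91) of CD members. These intervals overlap, and the CD share rests on 3 members. Large macrophages had it in 5.71% of HFD and 1.77% of CD cells, and contig-carrying barcodes in 1.44% and 0.907%. Mki67 stood at 36.1 and 7.34 CPM in HFD and CD members, against 23.2 and 10.1 CPM in large macrophages.

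Cxcl13, a chemokine for B cells, had the largest ratio of the 12 lower genes named by rule. It stood at 220.5 CPM in HFD and 2662 CPM in CD members, a log2 ratio of -3.59 (-3.71 to -3.48), against -2.88 in large macrophages. The ratio of members differed from that of large macrophages by -0.72 (-0.84 to -0.60), but the ratio of members was -1.64 with barcodes thinned to 2000 UMIs. Apoe, an apolipoprotein, stood at 4199.8 CPM in HFD and 17370.2 CPM in CD members, a log2 ratio of -2.05 (-2.08 to -2.02), against -2.28 in large macrophages. Saa3, serum amyloid A3, stood at 1743 and 6330.2 CPM in HFD and CD members, a log2 ratio of -1.86, against -1.82 in large macrophages, and its ratio in members was -0.48 with barcodes thinned to 2000 UMIs. All 3 genes were lower in HFD cells of either class.

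Scavenger and lectin receptors were lower in HFD members in 13 of 16 genes, 7 of them by 2-fold or more, with a median of -0.93, against -0.26 in large macrophages. The median in members was -0.35 with barcodes thinned to 2000 UMIs. Cd163 stood at 7.72 CPM in HFD and 54.0 CPM in CD members, a log2 ratio of -2.81 (-3.52 to -2.15). The ratio was -5.18 with barcodes thinned to 4000 UMIs, which left 64 HFD members and few HFD UMIs of the gene. In large macrophages Cd163 was under the floor of 20 CPM in both diets, at 3.82 CPM in HFD and 6.85 CPM in CD, and its ratio there is not set against that of members. Marco stood at 19.8 CPM in HFD and 146 CPM in CD members, a log2 ratio of -2.89 (-3.31 to -2.48), against -3.15 in large macrophages. Stab1 stood at 19.8 and 62.0 CPM in HFD and CD members, a ratio of -1.65 that became -0.46 with barcodes thinned to 4000 UMIs. These 3 receptors were lower in HFD members. Clec7a, the beta-glucan receptor dectin-1, stood at 16.4 and 58.7 CPM in HFD and CD members, a ratio of -1.84 (-2.36 to -1.34) that differed from that of large macrophages by -0.88 (-1.41 to -0.35). Cd209f, a lectin of tissue macrophages that was named after its values were seen, had 0 UMIs in HFD members and 38 UMIs in CD members. Those 38 UMIs lay in 5.04% of the 139 CD members, all of them members with a Lyve1 UMI. With 3 UMIs over all HFD members entered for the 0 count, the summed level came to 27.4-fold lower in HFD members. That figure depends on the entered floor and is not a lower bound. That ratio rests on few cells of 1 library.

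Other lower genes followed large macrophages. Cd38, an enzyme that breaks down NAD, stood at 10.5 CPM in HFD and 92.7 CPM in CD members, a log2 ratio of -3.14 (-3.73 to -2.59), and differed from large macrophages by 0.01 (-0.59 to 0.62). Cfb, complement factor B, stood at 41.1 and 140.1 CPM in HFD and CD members, a ratio of -1.77, against -1.46 in large macrophages. Tmem176a, a membrane protein, had a ratio of -1.58 in members and -1.80 in large macrophages, and Rsrp1 of -1.71 and -1.58. Complement genes were lower in 11 of 15, with a median of -0.44 in members and -0.51 in large macrophages. Glucocorticoid targets were lower in 13 of 14, with a median of -0.83 in members and -0.74 in large macrophages, though the median in members was -0.09 with barcodes thinned to 2000 UMIs. Genes of apoptotic cell uptake were lower in 14 of 15, with medians of -0.50 in members and -0.40 in large macrophages.

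**Figure D5:**
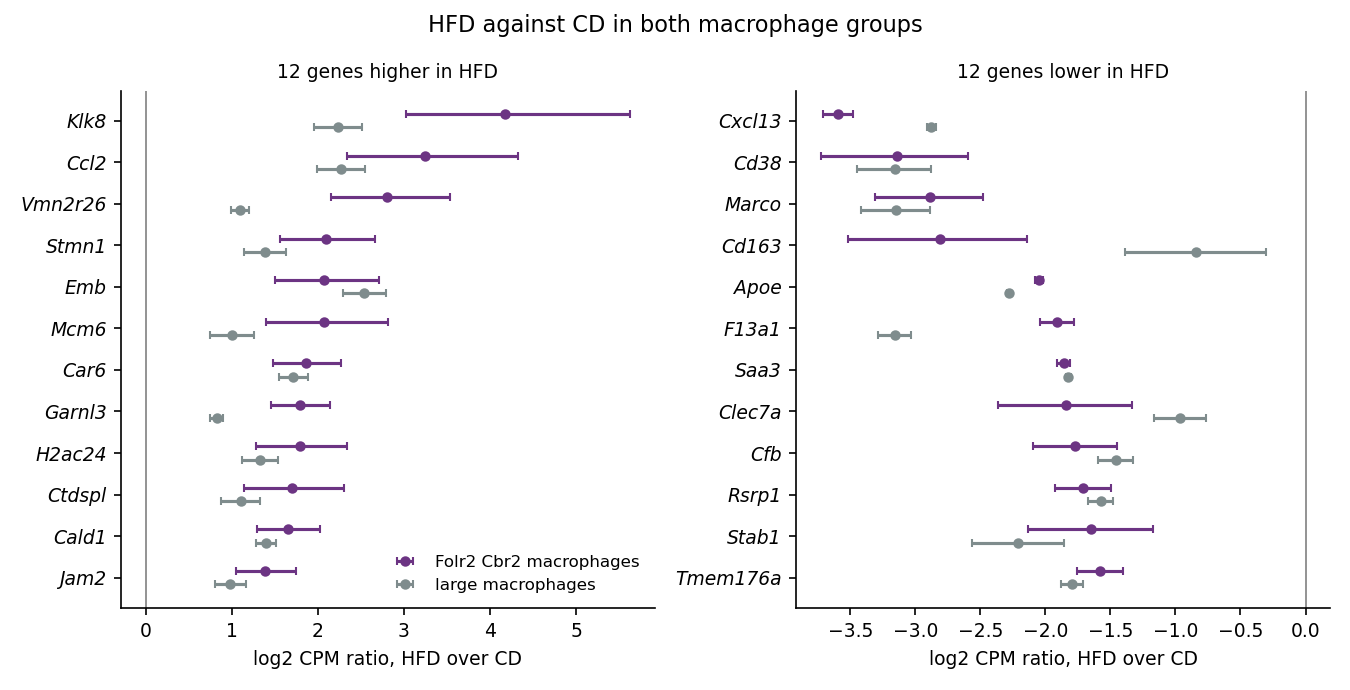
Log2 ratio of HFD over CD in members (purple) and in large macrophages (grey) for the 12 higher and 12 lower genes named by rule in members, with 95% counting intervals. The classes lie close together for Cd38, Saa3 and Car6 and apart for Vmn2r26, at 2.80 in members and 1.10 in large macrophages; the grey point of Cd163, at -0.84, rests on levels under 20 CPM.

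Retnla and Fcna were lower in HFD mice in both classes. The diet ratios of Folr2 and Cbr2 in members are set in part by the rule, whose UMI threshold weighs less in a deeper library, and are not read here. Retnla had a log2 ratio of HFD over CD of -1.24 (-1.28 to -1.19) in members, against -1.44 in large macrophages. Fcna had a ratio of -1.44 (-1.51 to -1.37) in members and -1.36 in large macrophages. F13a1 had a ratio of -1.91 (-2.04 to -1.78) in members and -3.16 in large macrophages, a difference of 1.24 (1.06 to 1.43). For F13a1 the members of HFD mice thus had more of the CD level than large macrophages did. Lyve1 had a ratio of -1.19 (-1.46 to -0.93) in members. It rose with the Folr2 and Cbr2 count, so the threshold of the rule can enter this ratio too, which was not tested. After thinning to 4000 UMIs, Lyve1 was found in 11.9% (7.4 to 17.8) of HFD and 18.5% (12.1 to 26.5) of CD members, intervals that overlap. In large macrophages Lyve1 was under the floor of 20 CPM in both diets, with 9 UMIs in HFD and 146 UMIs in CD, so no diet ratio is given for them. Of the 24 measured tissue-macrophage genes 18 were lower in HFD members, 10 of them by 2-fold or more, with a median of -0.88, against -0.79 in large macrophages. That median in members was -0.23 with barcodes thinned to 2000 UMIs and -0.46 at 4000. All 9 measured MHC class II genes were lower in HFD members, with a median of -0.54, and all 10 in HFD large macrophages, with a median of -1.45. The B-cell genes were lower as well, all 8 measured in members with a median of -0.60. In large macrophages all 12 were lower, with a median of -1.34. B cells carry class II genes, and their part in the class II ratio of large macrophages was not tested.

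The members were not alike among themselves. Splits by a Lyve1 or a Ccr2 UMI were chosen after the values were seen, rest on small groups, and are descriptions. The 34 HFD members with a Lyve1 UMI had 497 CPM of Folr2, against 172 CPM in the 136 without, and the 33 CD members with one had 576 CPM, against 280.4 CPM in the 106 without. Cbr2 stood at 670.2 and 168 CPM with and without Lyve1 in HFD and at 1026 and 337 CPM in CD. Fcna stood at 1818 and 772 CPM with and without Lyve1 in HFD and at 3264 and 2339 CPM in CD. Fcna was thus higher in Lyve1 cells of both libraries. Folr2 and Cbr2 are genes of the rule, and depth differed between the splits. The median was 14541 UMIs with and 19679 without Lyve1 in HFD, and 8136 and 8735.5 in CD. The gaps of Folr2 and Cbr2 are therefore not read. Maf stood at 181 and 86.4 CPM with and without Lyve1 in HFD and at 202 and 107 CPM in CD. Timd4 stood at 48.1 and 72.8 CPM with and without Lyve1 in HFD and at 72.0 and 156 CPM in CD. The 10 highest members held 68.5% of all Lyve1 UMIs in HFD and 68.2% in CD.

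The 27 HFD members with a Ccr2 UMI had 1752 CPM of H2-Aa, against 155 CPM in the 143 without, and the 31 CD members with one had 1875 CPM, against 298 CPM in the 108 without. Cd74 stood at 7263 and 783 CPM with and without Ccr2 in HFD and at 9654 and 1897 CPM in CD. Retnla stood at 5200.1 and 1733 CPM with and without Ccr2 in HFD and at 7731 and 4989 CPM in CD. Members with Ccr2 thus had higher summed levels of MHC class II genes and Retnla in both libraries, but the cells were uneven. Among HFD members with Ccr2, H2-Aa ran from 0 to 264 UMIs per cell and Retnla from 0 to 628. Among CD members with Ccr2, H2-Aa ran from 0 to 133 and Retnla from 0 to 461. The sums do not show that most members with Ccr2 shared these levels. Folr2, a gene of the rule, stood at 149 and 242 CPM with and without Ccr2 in HFD and at 284 and 369 CPM in CD. Median depth was 21517 UMIs with and 18022 without Ccr2 in HFD, and 10434 and 8146.5 in CD, so this gap is not read. Fcna stood at 442 and 1058 CPM with and without Ccr2 in HFD and at 1889 and 2760.0 CPM in CD. Cxcl13 stood at 9.69 and 270.3 CPM with and without Ccr2 in HFD and at 1457 and 3038 CPM in CD. Both a Lyve1 and a Ccr2 UMI were found in 3 of the 27 HFD and 7 of the 31 CD members with Ccr2, beside Lyve1 in 34 of 170 HFD and 33 of 139 CD members in all, so no separation of the splits is read from this overlap.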

How the data were processed

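Peritoneal CD45+ cells of HFD and CD mice were profiled with 10x 3′ v3.1 expression and B-cell receptor libraries, 4 samples in all. The authors deposited raw UMI counts per gene and barcode (33696 genes), made with Cell Ranger 8.0.1 per the file headers. Cell Ranger 6.0.1, the mm39 build and Seurat 4.3.0 stand in the submitters' processing notes. Receptor contig tables, whose values include the authors' deposited read and UMI counts, served only to leave out barcodes. Each of the 20124 deposited barcodes was filtered and classed as described above. Counts were summed per class and library, scaled to CPM, and compared as log2 ratios with exact conditional Poisson intervals. Shares carry Clopper-Pearson intervals and differences of shares Newcombe intervals. UMIs of members totalled 3238692 in HFD and 1499000 in CD, of 57272371 and 73371489 in filtered barcodes, and this depth sets the width of the intervals.

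A log2 ratio of 1 or more in size was the call. Where 1 group had 0 UMIs, 3 were entered as the floor. Named genes had 50 or more CPM, 50 or more UMIs, detection in 10% or more of cells and at least 0.5 of the level in contig-carrying barcodes, and the 12 highest and 12 lowest ratios were taken, genes of the rule and sex-linked, mitochondrial, ribosomal and receptor segment genes left out. Genes of the 35 lists were named for their level, but Mki67, Gata6, Timd4, Ccr2, Stab1 and Cd209f were chosen after their values were seen. The members and lists were chosen with earlier results of these data known. The scripts were tested on simulated data, and 14 other settings, and 1 more chosen after seeing the data, were run with Python 3.11.15, numpy 2.4.6, scipy 1.17.1 and pandas 2.3.3.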

Additional observations from a re-analysis of the deposited data

Results flagged for a closer look

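For 2 gene lists the ratio of members over large macrophages had opposite signs in the diets, and this difference was not tested because each diet had 1 library. The median log2 ratio of the cell-cycle list was 0.62 in HFD and -0.11 in CD mice. The median of the interferon response list was 0.27 in HFD and -0.11 in CD mice. The opposite signs did not hold under every setting. The cell-cycle median was -0.43 in HFD mice with barcodes thinned to 4000 UMIs and 0.51 in CD mice when 2 or more Folr2 and Cbr2 UMIs sufficed, and the interferon median was 0.12 in CD mice with equal weight per barcode. Against large macrophages drawn to the depths of the members, the cell-cycle median was 0.29 in HFD mice and the interferon median was 0.10 in CD mice.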

How the results depend on the processing

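No paired analysis was possible because each diet had 1 library and the labels carry no replicate numbers. The HFD minus CD share of filtered barcodes, 1.48 points, was 0.831 with 5 or more Folr2 and Cbr2 UMIs, 0.758 without any B or T marker UMI, 0.0315 at 2000 UMIs, 0.433 at 4000 UMIs and 0.0132 without members at large-macrophage level, which kept 6 HFD and 10 CD cells. The share of macrophages, 4.38 points, turned to -1.09 at 2000 UMIs, -0.765 at 4000 UMIs and -0.175 without members at large-macrophage level. It was 2.60 with 5 or more Folr2 and Cbr2 UMIs and 2.71 (-0.54 to 6.01) without any B or T marker UMI, where the interval includes 0. The 112 genes higher in HFD members became 809 with 5 UMIs and no CPM floor, 173 with CPM free of mitochondrial, ribosomal and immunoglobulin genes, 220 without B or T marker UMIs, 41 at 2000 UMIs and 59 without members at large-macrophage level. The 103 lower genes became 731 with 5 UMIs and no CPM floor, 159 with 5 or more Folr2 and Cbr2 UMIs, 169 without B or T marker UMIs, 66 at 2000 UMIs and 159 at 4000 UMIs. The 17 genes higher in members of both diets became 219 with 5 UMIs and no CPM floor, 30 with 5 or more Folr2 and Cbr2 UMIs, 31 with equal weight per barcode, 28 without B or T marker UMIs, 273 at 2000 UMIs, 109 at 4000 UMIs and 609 without members at large-macrophage level. The 20 lower genes became 112 with 5 UMIs and no CPM floor, 34 with 5 or more Folr2 and Cbr2 UMIs, 57 at 2000 UMIs, 53 at 4000 UMIs and 165 without members at large-macrophage level. With 6 HFD cells left, the class ratios of Igfbp4 and Fcna in HFD turned to -0.78 and -1.03. Each named value was checked under each setting that could give it, and 1913 of these checks stayed within their limits and 503 moved. At 2000 UMIs 89 moved and 51 stayed, and at 4000 UMIs 81 moved and 78 stayed. Without members at large-macrophage level 113 moved and 29 stayed. Fewer cells or a lower count floor are part of these alternatives, and other causes were not tested.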

Other observations

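Some gene groups differed little between HFD and CD members or did so to the same degree in large macrophages. Glycolysis genes were higher in HFD members in 12 of 16 and in HFD large macrophages in 14 of 16, with a median log2 ratio of 0.31 in either class. Gapdh stood at 4193 CPM in HFD and 2739 CPM in CD members, a log2 ratio of 0.61, against 0.60 in large macrophages. MHC class I genes were lower in 14 of 15, with a median of -0.36 in members and -0.33 in large macrophages. Genes of iron and heme handling were lower in 10 of 12, with medians of -0.17 in members and -0.23 in large macrophages, and Fth1, the ferritin heavy chain, stood at 2838 CPM in HFD and 5121 CPM in CD members. Folate and one-carbon genes were higher in 11 of 16, with a median of 0.27 in members and 0.10 in large macrophages.

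Of genes of alternative activation, Arg1, the enzyme arginase 1, was at 161 CPM in HFD and 98.7 CPM in CD members, a log2 ratio of 0.71, and Ccl24 at 254 and 523 CPM in HFD and CD members, a ratio of -1.04. Retnla and Arg1 thus differed in opposite directions between the diets. Pdgfb, a platelet-derived growth factor gene, was at 4.63 CPM in HFD and 31.4 CPM in CD members, against 0.461 and 3.37 CPM in large macrophages, from 15 UMIs in HFD and 47 UMIs in CD members.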
